A study of Danio rerio with 12 samples.

Results

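The collagen genes of zebrafish were followed in sorted embryonic cardiomyocytes that had lost or gained Hand2, a basic helix-loop-helix transcription factor of the lateral plate mesoderm and heart. Members were all table rows whose gene symbol begins with col, a type number, the letter a and a chain number, and they were grouped by class as fibrillar, basement membrane, type VI and other collagens. This rule found 52 collagen genes among the 22976 genes of both deposited tables. In the mutant experiment 52 of 21570 genes were collagen genes, with col6a3 and col19a1 listed under 2 identifiers each, and 46 of them had a mean of at least 5 normalized counts over the 6 libraries and were tested. In the overexpression experiment 47 of 21119 genes were collagen genes and 41 were tested. A total of 40 collagen genes were tested in both experiments.

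In the first experiment, hand2 FLD-/- embryos were homozygous for a null allele, a full-locus deletion made with guides against the 5′ and 3′ UTR, and hand2 FLD+/? embryos were born to the same parents and carried at least 1 intact copy, so that this control mixes WT and heterozygous animals. In the second experiment, hand2 OE embryos carried Tg(myl7:hand2-p2a-EGFP), in which a myl7 promoter drives extra hand2 in the myocardium, and their WT controls were also born to the same parents. All embryos were at 20 hpf, and every group had 3 libraries, which the study describes as biologically independent. Cardiomyocytes were sorted by a fluorescent protein under the myl7 promoter, EGFP in the mutant experiment, while the study names both EGFP and mCherry for the hand2 OE experiment. The labels do not say how embryos were pooled into libraries.

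Collagens are extracellular proteins whose chains wind around each other into a rigid helix. Fibrillar collagens build the tension-bearing fibrils of connective tissue, with types V and XI serving as nucleators of the type I and type II fibrils; type IV collagen forms the mesh of basement membranes, to which the multiplexins XV and XVIII attach; and type VI collagen forms beaded microfilaments close to the cell surface. In the embryonic heart, the matrix between the myocardium, the endocardium and the endoderm is the substrate on which cardiomyocytes move toward the midline.

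The normalized counts summed to between 6728865 and 6749894 in hand2 FLD-/- libraries and to between 6939409 and 6965321 in hand2 FLD+/? libraries, and to between 5322231 and 5371620 in hand2 OE and 5330481 and 5425823 in WT libraries. The targeted gene hand2 had 149, 427 and 45 normalized counts in hand2 FLD-/- against 2228, 2336 and 2380 in hand2 FLD+/?, and 2159, 1939 and 2102 in hand2 OE against 1671, 1667 and 1611 in WT, so that the groups lay apart in the labelled direction in both experiments. Library 2 of hand2 FLD-/- kept the most hand2 counts of its group, and the position of these reads in the gene was not analysed here. It was also the highest of its group for col6a1, col6a2, col5a3a, col11a1b and col12a1b. It was the lowest of its group for col1a1a, col1a2, col5a2a, the longer col6a3 gene, col15a1b and col18a1a. Without it 14 collagen genes were called down, as with it. The receptor gene pdgfra had 1077, 1110 and 1006 normalized counts in hand2 FLD-/- and 2953, 3015 and 3148 in hand2 FLD+/?. The summed level of a cardiomyocyte marker list was 27799 to 29254 in hand2 FLD-/- libraries, against 41270 to 44229 in hand2 FLD+/?. It was 48448 to 54191 in hand2 OE and 51256 to 56344 in WT. In the mutants 2 of 11 tested genes were called down, ttn.2 (log2 fold change -0.70) and myh6 (-2.37), where 9.43% of all tested genes fell. These 2 genes and myh7 (-0.48) had the highest means of the list and so weigh most in its sum. Changes were smaller for myl7 (-0.24), tnnc1a (-0.08) and nkx2.5 (-0.02), none of them called. Library 2 of hand2 OE and library 2 of hand2 FLD+/? stood apart in epidermal markers, with summed levels of 3810 and 3288 normalized counts, and counts of called collagen genes that changed without them are given with the results.

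Collagen genes fell more often than they rose in hand2 FLD-/- cardiomyocytes. A gene was called at a Benjamini-Hochberg adjusted p of at most 0.05 in limma, fitted over all genes on log2(normalized count + 1), and a fold of at least 1.5. By this rule 14 of the 46 collagen genes (30.4%) fell and 2 (4.35%) rose, where 9.43% of all 17877 tested genes fell and 9.09% rose. The lowest library of 1 group lay above the highest of the other for 16 collagen genes that were lower in the mutants and 5 that were higher, against 22.3% and 22.0% of all genes. The fall was uneven between classes. It was called for 6 of 12 fibrillar genes, 4 of 5 type VI genes, 2 of 9 basement membrane genes and 2 of 20 other collagen genes, and both rises were in the basement membrane class. The median log2 fold change was -4.46 in the type VI class and -1.08 in the fibrillar class, but 0.20 in the basement membrane class and 0.42 in the others, so that the median over all 46 collagen genes was 0.000235, beside 0.00316 over all tested genes. The type VI median is the value of the shorter col6a3 row (ENSDARG00000095915), which was at 0 in every mutant library. Its log2 fold change depends on the pseudocount and lay between -5.43 and -2.39 under the alternatives. That row overlaps the main col6a3 row, and both are counted among the 4 type VI genes and the 14 collagen genes called down.

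**Figure D1:**
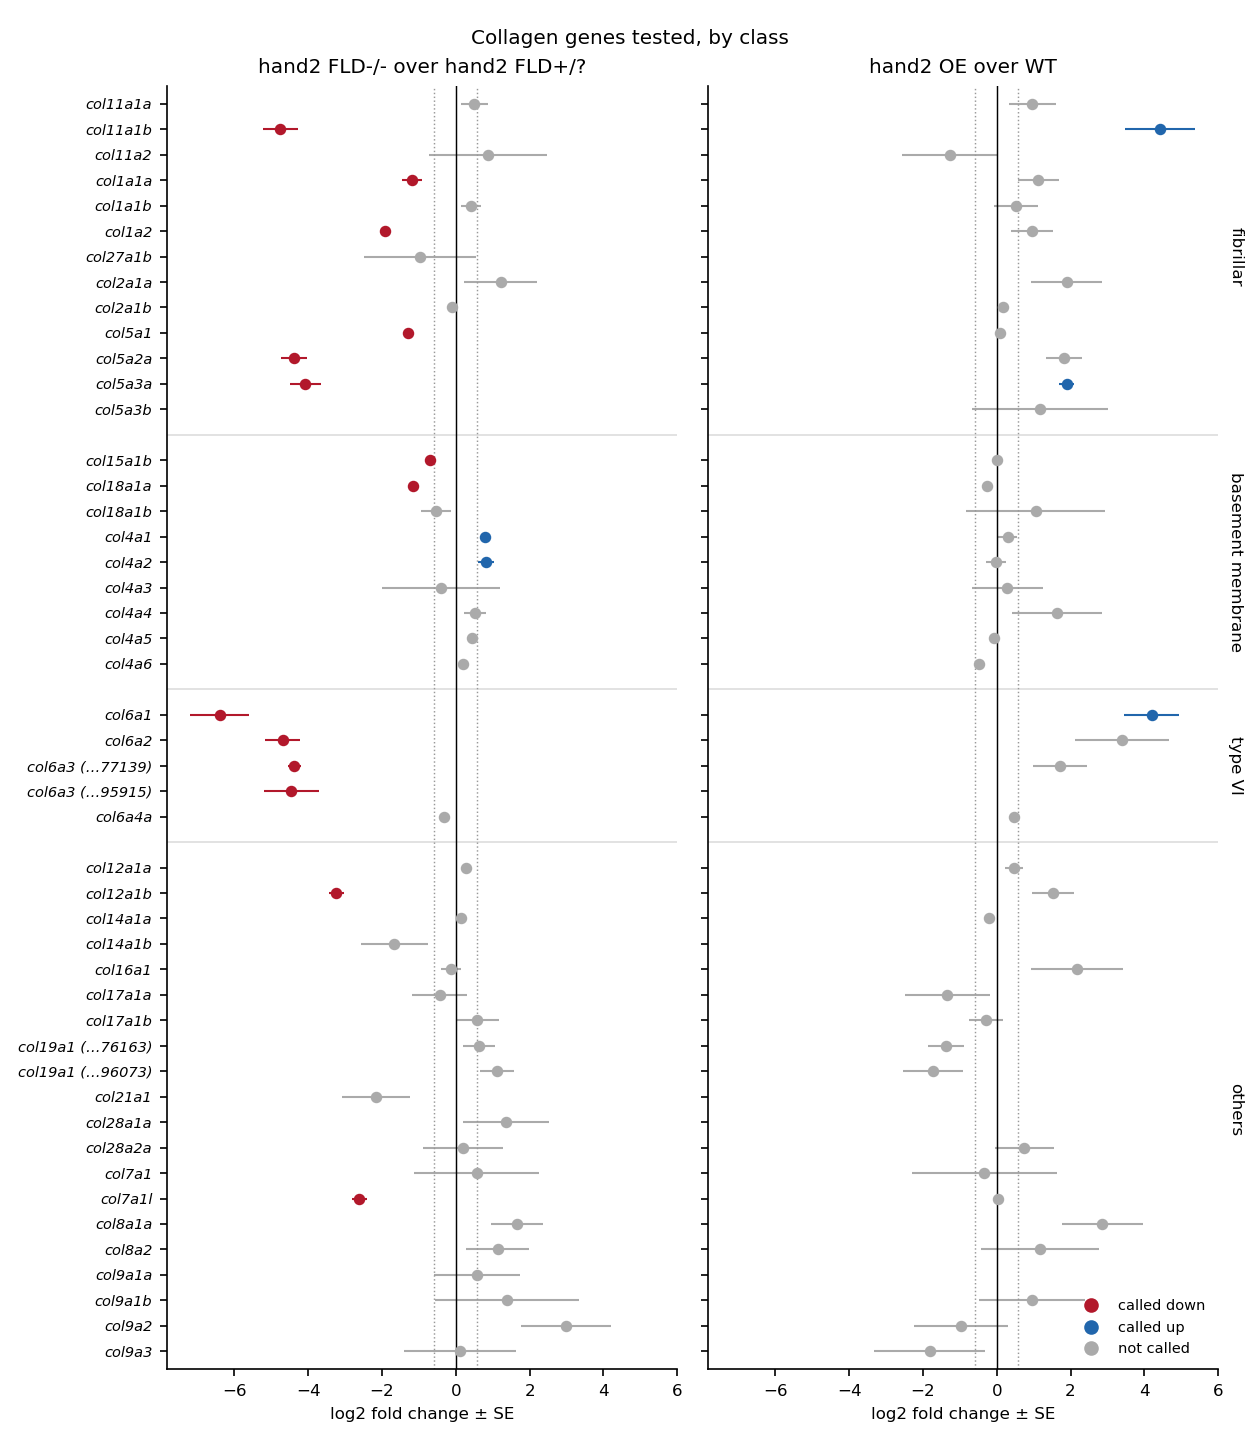
Log2 fold change of every tested collagen gene, with its standard error, for hand2 FLD-/- over hand2 FLD+/? (left) and hand2 OE over WT (right), 3 libraries per group, on the scale of log2(normalized count + 1), with dotted lines at a fold of 1.5. In the mutants the 14 genes called down lie mostly among the fibrillar and type VI genes, and in hand2 OE the 3 called genes all lie to the right.

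Summed over all 52 genes, collagen took 21768, 22104 and 19677 normalized counts in hand2 FLD-/- libraries against 31089, 30829 and 28394 in hand2 FLD+/? libraries. These sums correspond to 0.292 to 0.327% of the library totals in the mutants and 0.409 to 0.448% in the controls, without overlap. RNA of sorted cells was measured in bulk, so that fewer cells of a kind and less RNA per cell cannot be told apart. A list of lateral plate and mesothelial mesenchyme markers, which holds hand2 and pdgfra themselves, moved in the same direction as the collagen sum, with 9 of 11 tested genes down, tbx18 up and a summed level of 2204 to 2949 in hand2 FLD-/- against 9524 to 10100 in hand2 FLD+/?. No gene of that list was at 0 in every mutant library, and its part in the collagen result was not tested. A list of sclerotome and fin fold mesenchyme markers was also lower, with 3 of 10 tested genes down, 1 up and a summed level of 2759 to 2969 in hand2 FLD-/- against 3964 to 4480 in hand2 FLD+/?, and its part was not tested either.

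Type VI collagen showed the deepest loss. The chains encoded by col6a1, col6a2 and col6a3 join into a single microfilament subunit. In hand2 FLD-/- libraries col6a1 had 1, 29 and 4 normalized counts, against 606, 577 and 514 in hand2 FLD+/?. Every mutant library was far below every control library, and the log2 fold change was -6.40 ± 0.80 (SE, limma adjusted p = 3.61e-04, n = 3 each), the largest fall among the collagen genes. The partner col6a2 had 3, 12 and 7 normalized counts in hand2 FLD-/- and 154, 169 and 269 in hand2 FLD+/? (log2 fold change -4.69 ± 0.48, limma adjusted p = 1.09e-04). The main col6a3 gene (ENSDARG00000077139) had 30, 23 and 31 normalized counts in hand2 FLD-/- and 605, 593 and 591 in hand2 FLD+/? (-4.38 ± 0.18, limma adjusted p = 5.80e-07). All 3 chains of the subunit thus fell in every mutant library, and the ratio of control to mutant means was 49.9 for col6a1, 26.9 for col6a2 and 21.3 for col6a3.

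The shorter row also named col6a3 (ENSDARG00000095915) had 0 normalized counts in all 3 hand2 FLD-/- libraries and 28, 15 and 22 in hand2 FLD+/?, which is at least 7.22-fold lower against a floor of 3 counts per library. On danRer11 the 2 col6a3 rows share 6551 bases of the same strand of chromosome 9 (23914317-23990416 and 23983866-23994225). Reads that overlap several genes were excluded by the authors, so that the split of reads between these rows is uncertain. The genes col6a2 (33921358-33960318) and col6a1 (33996526-34065718) lie in a row on 1 strand of chromosome 11, with 36207 bases between them. The remaining type VI gene, col6a4a on chromosome 16, encodes a chain that can stand in place of the third one. It had 1891, 1198 and 1229 normalized counts in hand2 FLD-/- and 1922, 1587 and 1734 in hand2 FLD+/?, the groups overlapped, and it was not called (log2 fold change -0.31 ± 0.16, limma adjusted p = 0.177). The class sum of 1925, 1262 and 1271 normalized counts in hand2 FLD-/-, against 3315, 2941 and 3130 in hand2 FLD+/?, was thus made up almost wholly of col6a4a in the mutants.

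**Figure D2:**
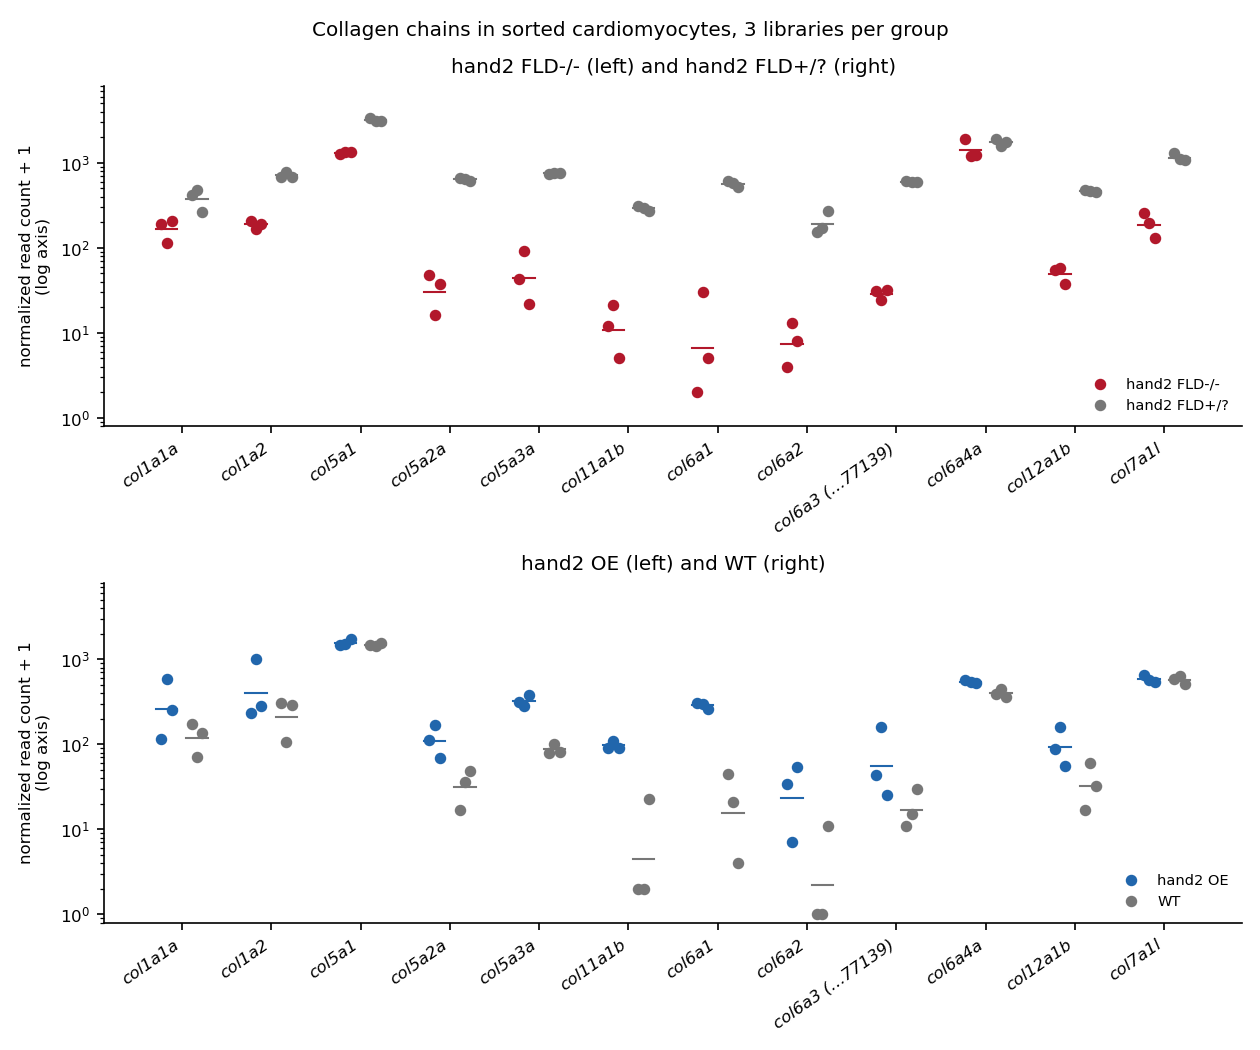
Normalized read count + 1 on a log axis for 12 collagen genes in each library (points, horizontal line for the geometric mean), with hand2 FLD-/- left of hand2 FLD+/? (top) and hand2 OE left of WT (bottom). The hand2 FLD-/- points of col6a1 (1 to 29 normalized counts) lie far below the controls (514 to 606), and the hand2 OE points (256 to 308) lie above WT (3 to 44).

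Among fibrillar collagens, the falls of largest size were in 3 chains of the nucleating types V and XI, col11a1b, col5a2a and col5a3a. The gene col11a1b, which encodes an alpha 1 chain of type XI collagen, had 11, 20 and 4 normalized counts in hand2 FLD-/- and 309, 289 and 273 in hand2 FLD+/? (log2 fold change -4.75 ± 0.48, limma adjusted p = 9.66e-05). The type V chain gene col5a2a had 47, 15 and 36 normalized counts in hand2 FLD-/- and 658, 641 and 607 in hand2 FLD+/? (-4.38 ± 0.35, limma adjusted p = 2.70e-05). The type V chain gene col5a3a had 42, 91 and 21 normalized counts in hand2 FLD-/- and 740, 760 and 751 in hand2 FLD+/? (-4.08 ± 0.42, limma adjusted p = 1.10e-04). For each of these chains the highest mutant library stayed below the lowest control library by a wide margin. The obligate type V chain gene col5a1, by contrast, kept 1278, 1329 and 1346 normalized counts in hand2 FLD-/- against 3374, 3112 and 3137 in hand2 FLD+/?, with a smaller fall of -1.28 ± 0.04 on the log2 scale (limma adjusted p = 3.11e-07) and libraries that differed little within each group.

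Type I collagen, the main fibril of skin, tendon and bone, is built from chains encoded by col1a1a, col1a1b and col1a2. The gene col1a2 had 208, 165 and 191 normalized counts in hand2 FLD-/- and 687, 786 and 680 in hand2 FLD+/? (log2 fold change -1.93 ± 0.12, limma adjusted p = 5.43e-06). The gene col1a1a had 188, 113 and 204 normalized counts in hand2 FLD-/- and 413, 471 and 265 in hand2 FLD+/? (-1.19 ± 0.27, limma adjusted p = 0.00894). Neither gene's groups overlapped. The call of col1a1a was lost in limma without the variance trend (adjusted p = 0.0588), a fit that called 13 collagen genes down against 8.65% of all genes. The third type I chain gene, col1a1b, had 277, 277 and 256 normalized counts in hand2 FLD-/- and 185, 322 and 139 in hand2 FLD+/?, so that the groups overlapped and it was not called (0.41 ± 0.26, limma adjusted p = 0.276).

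Type II collagen is the fibril of cartilage and of the notochord sheath. The gene col2a1b had 1918, 1889 and 1792 normalized counts in hand2 FLD-/- and 2083, 2072 and 1914 in hand2 FLD+/?, which was not called (log2 fold change -0.12 ± 0.05, limma adjusted p = 0.105). The type XI gene col11a1a had 208, 382 and 130 normalized counts in hand2 FLD-/- and 109, 195 and 172 in hand2 FLD+/? and was not called either (0.50 ± 0.37, limma adjusted p = 0.350). The fibrillar sum was 4260, 5277 and 4037 normalized counts in hand2 FLD-/- and 8631, 8826 and 7973 in hand2 FLD+/?, without overlap.

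Basement membrane collagens moved in opposite directions by type. The network-forming pair col4a1 and col4a2, which supplies type IV collagen to nearly all basement membranes, rose, while 2 of 3 multiplexin genes fell. The gene col4a1 had 880, 922 and 752 normalized counts in hand2 FLD-/- and 484, 524 and 472 in hand2 FLD+/? (log2 fold change 0.78 ± 0.09, limma adjusted p = 2.41e-04). The gene col4a2 had 156, 105 and 141 normalized counts in hand2 FLD-/- and 69, 79 and 76 in hand2 FLD+/? (0.82 ± 0.22, limma adjusted p = 0.0204). All mutant libraries were above all controls for both genes, which lie head to head on chromosome 9 (8634229-8670158 and 8761099-8882901 on danRer11). The col4a2 call was lost without library 1 or 3 of hand2 FLD-/- or library 1 of hand2 FLD+/? (limma adjusted p up to 0.0757), and the count of collagen genes called up was 1 without each of these and 5 without library 2 of hand2 FLD+/?.

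Another head-to-head pair of type IV genes, col4a6 and col4a5 on chromosome 7, has 752 bases between its members, where col4a1 and col4a2 have 90940. The gene col4a5 had 1650, 1817 and 1606 normalized counts in hand2 FLD-/- and 1334, 1259 and 1173 in hand2 FLD+/?, without overlap and with a limma adjusted p of 0.00107, but its log2 fold change of 0.43 ± 0.07 was below the fold threshold. Its neighbor col4a6 had 1882, 1658 and 1733 normalized counts in hand2 FLD-/- and 1674, 1606 and 1337 in hand2 FLD+/? and was not called (0.20 ± 0.08, limma adjusted p = 0.116). The chains col4a3 and col4a4, known from the kidney filter and also encoded head to head, on chromosome 15, were at 0 to 81 normalized counts and were not called. Type IV collagen together had 4648, 4583 and 4284 normalized counts in hand2 FLD-/- and 3608, 3550 and 3095 in hand2 FLD+/?. A list of endothelial and endocardial markers also rose, with 6 of 9 tested genes up and 1 down. Its summed level was 4483 to 4677 in hand2 FLD-/- against 1222 to 1611 in hand2 FLD+/?. Of that list plvapa was at 0 in all 3 hand2 FLD-/- libraries, and the part of these cells in the col4a1 and col4a2 rise was not tested.

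The multiplexin gene col18a1a, whose product releases the antiangiogenic fragment endostatin, had 1623, 1549 and 1623 normalized counts in hand2 FLD-/- and 3763, 3645 and 3364 in hand2 FLD+/? (log2 fold change -1.17 ± 0.05, limma adjusted p = 5.51e-07). The multiplexin gene col15a1b had 3127, 2974 and 3068 normalized counts in hand2 FLD-/- and 4945, 5024 and 4988 in hand2 FLD+/? (-0.71 ± 0.03, limma adjusted p = 5.51e-07). Libraries of 1 group agreed closely for both genes and the groups lay apart. The paralog col18a1b was at 16, 15 and 22 normalized counts in hand2 FLD-/- and 23, 29 and 26 in hand2 FLD+/? and was not called (-0.55 ± 0.41, limma adjusted p = 0.361).

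Of the other collagens, 2 of 20 tested genes fell, near the share of all tested genes that fell (9.43%). The gene col12a1b, which encodes a collagen that coats type I fibrils, had 54, 57 and 36 normalized counts in hand2 FLD-/- and 472, 463 and 454 in hand2 FLD+/? (log2 fold change -3.24 ± 0.20, limma adjusted p = 5.61e-06). The gene col7a1l, related to the type VII collagen that anchors the mammalian epidermis to its dermis, had 253, 195 and 131 normalized counts in hand2 FLD-/- and 1293, 1098 and 1065 in hand2 FLD+/? (-2.62 ± 0.21, limma adjusted p = 2.38e-05). Both genes were low in every mutant library. The fibril-associated genes with the highest means in this class moved little. The gene col14a1a had 3210, 3024 and 2986 normalized counts in hand2 FLD-/- and 3039, 2785 and 2578 in hand2 FLD+/? (0.14 ± 0.06, limma adjusted p = 0.111), and col12a1a had 2009, 2087 and 1842 in hand2 FLD-/- and 1718, 1778 and 1450 in hand2 FLD+/? (0.27 ± 0.08, limma adjusted p = 0.0315), which was under the fold threshold. Most of the remaining genes were at low levels, and 6 collagen genes of the mutant table, among them col5a2b, col10a1b and col8a1b, were below the mean of 5 and were not tested.

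In the reciprocal experiment, few collagen genes were called, and the called genes rose. With no fold threshold, 4 collagen genes were up and 3 down at an adjusted p of at most 0.05. In hand2 OE cardiomyocytes 3 of 41 collagen genes (7.32%) were called up, where 2.53% of all 16510 tested genes rose. By limma 0 were called down, where 1.57% of all genes fell, also without the variance trend, while 13 collagen genes had an unadjusted p under 0.05 in either direction. The groups did not overlap for 6 genes that were higher in hand2 OE and 5 that were lower, against 13.1% and 12.9% of all genes. The median log2 fold change of the collagen genes was 0.47, beside 0.00148 over all tested genes, and it ranged between 0.12 without library 2 and 0.74 without library 3 of hand2 OE. The collagen sum overlapped between groups, with 20971, 22919 and 20904 normalized counts in hand2 OE and 21183, 21020 and 20270 in WT. Lateral plate and mesothelial markers had a summed level of 4865 to 5026 in hand2 OE and 2573 to 2777 in WT, with 4 of 10 tested genes up. Notochord and floor plate markers had 1537 to 2043 normalized counts in hand2 OE and 500 to 677 in WT, with 1 of 7 up, and sclerotome and fin fold mesenchyme markers had 2304 to 2366 in hand2 OE and 1529 to 1761 in WT, with 2 of 8 up. The part of these lists in the collagen rises was not tested.

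The called genes were col6a1, col11a1b and col5a3a. The type VI gene col6a1 had 308, 294 and 256 normalized counts in hand2 OE and 44, 20 and 3 in WT (log2 fold change 4.20 ± 0.75, limma adjusted p = 0.0141). The type XI gene col11a1b had 90, 109 and 90 normalized counts in hand2 OE and 1, 1 and 22 in WT (4.42 ± 0.95, limma adjusted p = 0.0279). The type V gene col5a3a had 311, 279 and 382 normalized counts in hand2 OE and 79, 100 and 80 in WT (1.89 ± 0.20, limma adjusted p = 0.00131). For each gene all hand2 OE libraries were above all WT libraries, and the WT libraries of col6a1 and col11a1b were at low counts that differed from each other many-fold. The hand2 FLD+/? controls of the mutant experiment had means of 566 for col6a1, 290 for col11a1b and 750 for col5a3a. The WT means were lower, at 22.3, 8.0 and 86.3, and so were the hand2 OE means of 286, 96.3 and 324. In hand2 FLD-/- the means were 11.3, 11.7 and 51.3, so that WT lay closer to hand2 FLD-/- than to hand2 FLD+/?. The WT means of col5a2a (33.0) and col12a1b (35.3) were also near those of hand2 FLD-/- (32.7 and 49.0). For col15a1b the WT mean of 4971 was instead near the hand2 FLD+/? mean of 4986. For col18a1a the WT mean of 4471 was above that of hand2 FLD+/?, 3591. Each table was normalized alone, and the difference between the control groups was not tested. The col6a1 call was lost without library 2 or 3 of hand2 OE (limma adjusted p up to 0.0647) and the col11a1b call without any single library other than WT library 3 (limma adjusted p up to 0.105), so that 1 collagen gene, col5a3a, was called up without library 2 or 3 of hand2 OE. Without the variance trend col5a3a was likewise the 1 gene called up, against 0.806% of all genes.

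Partner chains of these genes were not called. The gene col6a2 had 33, 6 and 53 normalized counts in hand2 OE and 0, 0 and 10 in WT (limma adjusted p = 0.167). The main col6a3 gene had 43, 159 and 24 normalized counts in hand2 OE and 10, 14 and 29 in WT (log2 fold change 1.72 ± 0.74, limma adjusted p = 0.230). Both overlapped between groups. The gene col5a2a had 112, 169 and 68 normalized counts in hand2 OE and 16, 35 and 48 in WT, which did not overlap but missed the threshold (1.82 ± 0.50, limma adjusted p = 0.0679). The gene col6a4a had 567, 543 and 523 normalized counts in hand2 OE and 389, 442 and 359 in WT, with a limma adjusted p of 0.0363 and a log2 fold change of 0.46 ± 0.11, below the fold threshold. The type XI partner col11a2 had 0, 30 and 2 normalized counts in hand2 OE and 10, 16 and 6 in WT, with a log2 fold change of the other sign (-1.27, limma adjusted p = 0.649). The type VI sum was 951, 1002 and 856 normalized counts in hand2 OE and 443, 476 and 401 in WT, without overlap.

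The abundant fibrillar chain col5a1 had 1460, 1516 and 1709 normalized counts in hand2 OE and 1464, 1413 and 1564 in WT (log2 fold change 0.08 ± 0.07, limma adjusted p = 0.603), and the cartilage-type col2a1b had 1444, 1396 and 1309 in hand2 OE and 1112, 1386 and 1200 in WT (0.17 ± 0.08, limma adjusted p = 0.289). Among the 9 basement membrane genes limma called 0, with an unadjusted p under 0.05 for 2. The gene col15a1b had 5401, 4558 and 5056 normalized counts in hand2 OE and 4875, 5182 and 4856 in WT (0.0070 ± 0.06, limma adjusted p = 0.966). The gene col18a1a was lower without overlap, with 3916, 3577 and 3755 normalized counts in hand2 OE and 4506, 4577 and 4331 in WT (limma adjusted p = 0.00749), but its log2 fold change of -0.25 ± 0.04 was under the fold threshold. The type IV gene col4a6 had 717, 764 and 672 normalized counts in hand2 OE and 1087, 970 and 942 in WT (-0.48 ± 0.08, limma adjusted p = 0.0118), and col14a1a had 3835, 3311 and 3684 in hand2 OE and 4225, 4242 and 4140 in WT (-0.22 ± 0.05, limma adjusted p = 0.0351). These 3 genes were the collagen genes with an adjusted p of at most 0.05 and a lower level in hand2 OE. The pair raised in the mutants overlapped between groups here, with 355, 323 and 450 normalized counts of col4a1 in hand2 OE and 444, 300 and 208 in WT, and 69, 101 and 94 of col4a2 in hand2 OE and 89, 93 and 83 in WT.

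Set side by side, 13 of the collagen genes that fell in hand2 FLD-/- were also tested in hand2 OE. The 3 genes called up there were all among these 13, and genes that fell in the mutants and rose in hand2 OE made up 1.46% of the 15931 genes tested in both experiments. Among all 1567 genes that fell in the mutants and were tested in both, 14.8% were called up in hand2 OE, which is the share to set beside 3 of 13. Of the 13, 12 had a positive log2 fold change in hand2 OE, where 1013 of all 1567 genes had one. The exception was col18a1a, which was lower than its controls in hand2 FLD-/- and in hand2 OE alike. Among the 12, col15a1b (0.0070), col7a1l (0.03) and col5a1 (0.08) lay near 0. The values of col15a1b and col7a1l reached -0.050 and -0.046 with a single library left out. The median of the 13 was 1.53, beside 0.29 for the other 27 collagen genes and 0.28 for all 1567 genes. The call was made in the mutants alone for col1a1a, col1a2, col5a1, col5a2a, col6a2, col6a3, col7a1l, col12a1b, col15a1b and col18a1a, and whether the size of the effect differed between the experiments was not tested. The gene col12a1b had 88, 160 and 54 normalized counts in hand2 OE and 16, 59 and 31 in WT (1.53 ± 0.56, limma adjusted p = 0.158), and col7a1l had 650, 569 and 545 in hand2 OE and 580, 632 and 516 in WT (0.03 ± 0.11, limma adjusted p = 0.912).

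Several zebrafish collagen genes are kept as duplicates from the genome duplication of teleost fish. The log2 ratio of a copy over b copy was formed in each library for the 6 pairs with both copies tested in both experiments. Gene lengths differ, so that the shift between groups is given and not which copy was higher, and the pairs were compared after their values were seen, as a description with no test. The ratio of col11a1a to col11a1b was 4.12, 4.19 and 4.71 in hand2 FLD-/- and -1.49, -0.57 and -0.66 in hand2 FLD+/?, a shift of 5.25. The ratio of col12a1a to col12a1b was 5.19, 5.17 and 5.64 in hand2 FLD-/- and 1.86, 1.94 and 1.67 in hand2 FLD+/?, a shift of 3.51. In both pairs every mutant library lay above every control library. The ratio of col1a1a to col1a1b was -0.56, -1.29 and -0.33 in hand2 FLD-/- and 1.15, 0.55 and 0.93 in hand2 FLD+/?, a shift of -1.60, and that of col18a1a to col18a1b had a smaller shift of -0.62, both without overlap. The ratios of the col2a1 and col17a1 pairs overlapped between groups.

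In hand2 OE the ratio of col11a1a to col11a1b was -0.42, 1.87 and 0.42 in hand2 OE and 5.74, 4.32 and 2.18 in WT, a shift of -3.46. The ratio of col1a1a to col1a1b was -0.14, -0.10 and 0.43 in hand2 OE and -0.79, -0.39 and -0.44 in WT, a shift of 0.60. Neither pair overlapped between groups, and both shifts had the sign opposite to that in the mutants. A shift is the log2 fold change of the a copy less that of the b copy, so it is no separate observation. The WT ratios of the col11a1 pair rest on col11a1b counts of 1, 1 and 22 and depend on the pseudocount. The ratios of the col12a1, col2a1, col17a1 and col18a1 pairs overlapped, with a mean of 1.87 in hand2 OE and 2.92 in WT for col12a1.

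**Figure D3:**
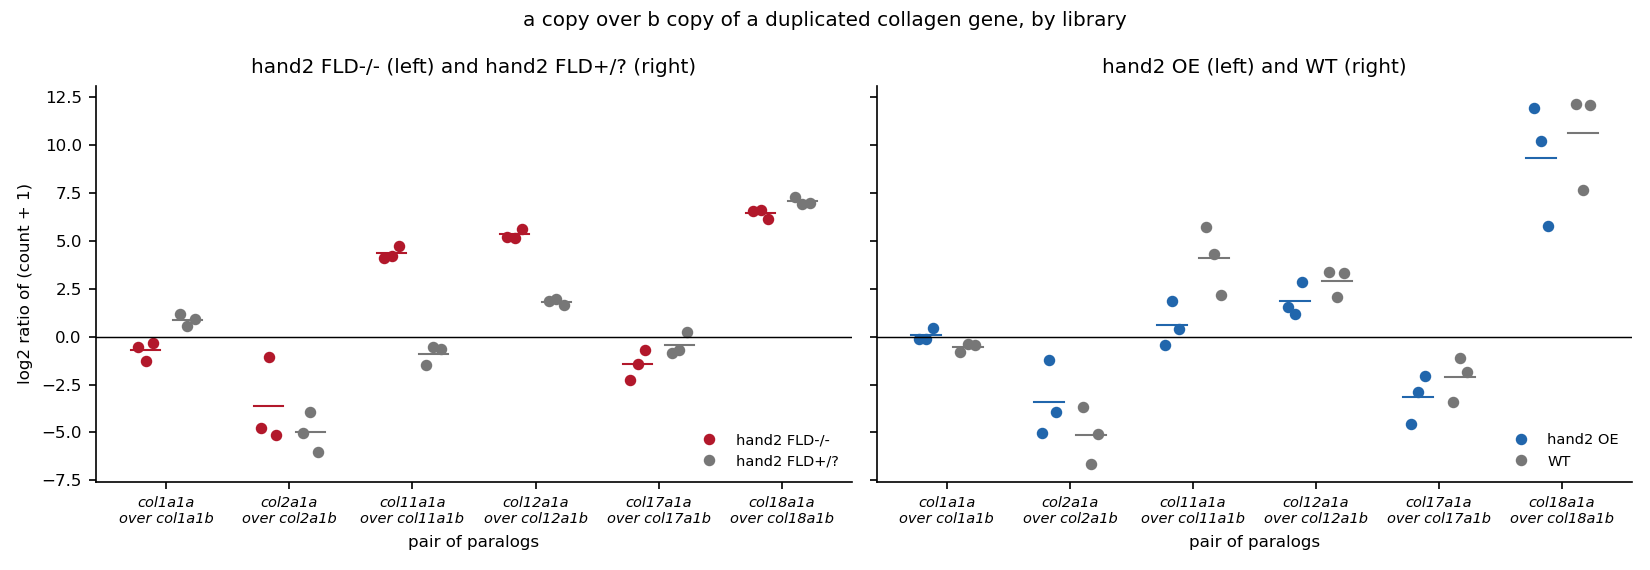
Log2 ratio of (normalized count + 1) of the a copy over the b copy of 6 duplicated collagen genes in each library (points, line for the mean), with hand2 FLD-/- left of hand2 FLD+/? and hand2 OE left of WT. The ratio of col11a1a to col11a1b lies between 4.12 and 4.71 in hand2 FLD-/- and between -1.49 and -0.57 in hand2 FLD+/?.

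A set of collagen genes varied more between libraries of 1 group than between groups. Of the notochord and cartilage collagens, col2a1a, col9a1b, col9a2, col9a3 and col11a2 were high in library 2 of hand2 FLD-/-, while col2a1b and col9a1a were not. The gene col2a1a had 69, 913 and 51 normalized counts in hand2 FLD-/- and 64, 134 and 29 in hand2 FLD+/?. The type IX chain genes, whose products decorate type II fibrils, included col9a1b and col9a3 with the same high library, with 10, 366 and 0 normalized counts of col9a1b in hand2 FLD-/- and 0, 14 and 14 in hand2 FLD+/?, and 0, 162 and 10 of col9a3 in hand2 FLD-/- and 15, 10 and 7 in hand2 FLD+/?. The gene col9a2 had 32, 195 and 22 normalized counts in hand2 FLD-/- and 10, 26 and 0 in hand2 FLD+/?. The gene col9a1a, with 18, 1 and 6 normalized counts in hand2 FLD-/- and 9, 7 and 0 in hand2 FLD+/?, was lowest in that library. Summed with col9a1a and col11a2, these genes took 130, 1710 and 89 normalized counts in hand2 FLD-/- and 98, 198 and 52 in hand2 FLD+/?, and limma called 0 of the 6, with an unadjusted p under 0.05 for 1. A list of notochord and floor plate markers had 1764, 2245 and 1916 normalized counts in hand2 FLD-/- and 2758, 2892 and 2017 in hand2 FLD+/?, with library 2 the highest of hand2 FLD-/-, and its part was not tested.

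Library 2 of hand2 OE stood apart in col2a1a and in type I collagen. It was also well above its group for col11a1a (67, 401 and 121 normalized counts), col28a2a (39, 221 and 66), col7a1 (0, 102 and 0), col8a1a (18, 90 and 17) and the main col6a3 gene. The type IX genes were at 41 normalized counts or fewer in every library of that experiment. Among them col9a1b, col9a2 and col9a3 were highest of hand2 OE in library 2, while col9a1a was not. The gene col2a1a had 43, 606 and 84 normalized counts in hand2 OE and 86, 13 and 35 in WT. Type I collagen had 115, 593 and 249 normalized counts of col1a1a in hand2 OE and 170, 69 and 136 in WT, 127, 636 and 184 of col1a1b in hand2 OE and 294, 91 and 185 in WT, and 230, 1013 and 282 of col1a2 in hand2 OE and 303, 104 and 288 in WT. For all 3 type I genes library 2 was the highest of hand2 OE and the lowest of WT, and none was called. The summed level of 9 listed epidermis and periderm markers had the same highest and lowest libraries, with 348, 3810 and 1487 normalized counts in hand2 OE and 1820, 519 and 2125 in WT. In the mutant experiment that list had 1089, 1054 and 1134 normalized counts in hand2 FLD-/- and 771, 3288 and 915 in hand2 FLD+/?, and library 2 of hand2 FLD+/? was also the highest of its group for all 3 type I genes. The genes col28a2a, with 270, 26 and 33 normalized counts in hand2 FLD-/- and 24, 289 and 22 in hand2 FLD+/?, and col7a1, with 22, 6 and 0 in hand2 FLD-/- and 0, 48 and 0 in hand2 FLD+/?, were high in it as well. The part of epidermal RNA in these collagen values was not tested.

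**Figure D4:**
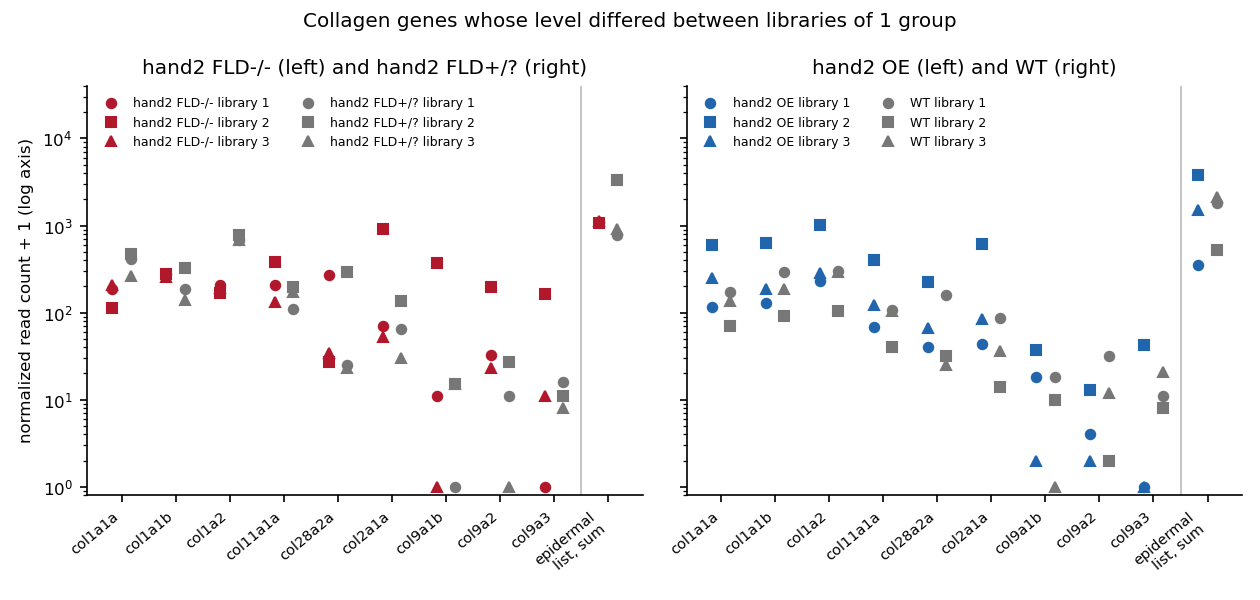
Normalized read count + 1 on a log axis for 9 collagen genes and for the sum of the epidermis and periderm list, 1 symbol per library number, with hand2 FLD-/- left of hand2 FLD+/? and hand2 OE left of WT. For col2a1a, library 2 of hand2 FLD-/- (913) lies above the other libraries of its group, but for col1a1a and col1a2 it lies below them. Library 2 of hand2 OE lies above the other libraries of its group for col2a1a (606) and col1a2 (1013).

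The machinery that makes, binds and breaks down collagen was followed with 6 lists of 129 symbols. Of these, 97 genes were tested in the mutant experiment, and 24 fell and 4 rose, where 9.43% and 9.09% of all genes did. In hand2 OE 85 were tested, and 12 rose and 2 fell, where 2.53% and 1.57% of all genes did. The lists are small, and a list with 1 or 2 called genes is near these shares in the mutant experiment. The list genes called up in hand2 OE numbered 4 without the variance trend, 6 without library 2 and 7 without library 3 of hand2 OE, and 8 without library 2 or 3 of WT. In that experiment 1 was called down without any single library of WT. Among chaperones and enzymes that modify the chains in the endoplasmic reticulum, 7 of 25 genes fell in hand2 FLD-/- and 3 of 23 rose in hand2 OE. The lysyl hydroxylase gene plod2 had 175, 195 and 175 normalized counts in hand2 FLD-/- and 981, 1079 and 940 in hand2 FLD+/? (log2 fold change -2.45 ± 0.09, limma adjusted p = 4.58e-07), and 709, 588 and 634 in hand2 OE and 398, 357 and 366 in WT (0.78 ± 0.10, limma adjusted p = 0.00396). The prolyl 3-hydroxylase gene p3h2 had 423, 567 and 505 normalized counts in hand2 FLD-/- and 1585, 1573 and 1603 in hand2 FLD+/?, and 1029, 971 and 951 in hand2 OE and 495, 516 and 538 in WT. The prolyl 4-hydroxylase gene p4ha1b was called in both experiments as well, with a log2 fold change of -0.78 in hand2 FLD-/- and 0.66 in hand2 OE, where the call was lost without library 2 of hand2 OE (limma adjusted p = 0.0562) and without library 1 of WT (log2 fold change 0.56). Groups did not overlap for any of these enzymes in either experiment.

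In procollagen processing and cross-linking 4 of 18 genes fell and 3 rose in hand2 FLD-/-, and 4 of 15 rose in hand2 OE. The transglutaminase gene tgm2b had 88, 94 and 69 normalized counts in hand2 FLD-/- and 1210, 1319 and 1337 in hand2 FLD+/? (log2 fold change -3.94 ± 0.13, limma adjusted p = 2.73e-07), and 252, 378 and 292 in hand2 OE and 86, 85 and 83 in WT (1.83 ± 0.20, limma adjusted p = 0.00164). The gene pcolcea, which encodes an enhancer of procollagen cleavage, had 834, 945 and 819 normalized counts in hand2 FLD-/- and 2389, 2552 and 2560 in hand2 FLD+/?, and 1513, 1416 and 1280 in hand2 OE and 755, 697 and 830 in WT. The lysyl oxidase gene loxl1 had 1, 14 and 0 normalized counts in hand2 FLD-/- and 74, 41 and 44 in hand2 FLD+/?, and 13, 42 and 22 in hand2 OE and 0, 1 and 1 in WT, where its call was lost without any single library (limma adjusted p up to 0.152). In the other direction, the procollagen proteinase gene tll1 had 160, 128 and 131 normalized counts in hand2 FLD-/- and 8, 0 and 6 in hand2 FLD+/? (5.14 ± 0.77, limma adjusted p = 0.00103). Among export genes, creb3l2 was down among 11 in hand2 FLD-/-, near the share of all genes, and creb3l1 was up among 11 in hand2 OE, where its call was lost without any single library other than WT library 1 (limma adjusted p up to 0.153).

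Of the collagen receptors, 7 of 18 fell in hand2 FLD-/-, and 1 of 15, itga11a, fell in hand2 OE. The endocytic receptor gene mrc2 had 364, 307 and 256 normalized counts in hand2 FLD-/- and 1005, 990 and 900 in hand2 FLD+/? (log2 fold change -1.65 ± 0.12, limma adjusted p = 1.77e-05), and antxr1c had 54, 108 and 87 in hand2 FLD-/- and 330, 298 and 276 in hand2 FLD+/?. The integrin gene itga11a had 13, 10 and 1 normalized counts in hand2 FLD-/- and 30, 82 and 45 in hand2 FLD+/?, and 16, 21 and 24 in hand2 OE and 66, 91 and 103 in WT. It was thus lower in both comparisons, and its call was lost without library 2 or 3 of hand2 FLD+/? (limma adjusted p up to 0.0886) and without any library of WT (up to 0.0874). Proteases and their inhibitors had 1 of 17 genes up and 2 down in hand2 FLD-/-, near the shares of all genes, where the gelatinase gene mmp9 had 647, 732 and 814 normalized counts in hand2 FLD-/- and 153, 214 and 185 in hand2 FLD+/?, and 2 of 14 up and 1 down in hand2 OE. The membrane-type protease gene mmp17a had 85, 125 and 110 normalized counts in hand2 OE and 266, 286 and 223 in WT (-1.28 ± 0.21, limma adjusted p = 0.00930). The cathepsin K gene ctsk had 129, 197 and 116 normalized counts in hand2 OE and 71, 29 and 24 in WT (limma adjusted p = 0.0358), and its call was lost without any single library other than WT library 1 (up to 0.131).

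Small leucine-rich proteoglycans bind to collagen fibrils and set their diameter. In hand2 FLD-/- 3 of 8 genes fell, and in hand2 OE 2 of 7 rose. The decorin gene dcn had 196, 402 and 198 normalized counts in hand2 FLD-/- and 2211, 2294 and 2205 in hand2 FLD+/? (log2 fold change -3.16 ± 0.24, limma adjusted p = 1.73e-05), and 1087, 1189 and 1079 in hand2 OE and 267, 269 and 326 in WT (1.96 ± 0.10, limma adjusted p = 7.67e-05). The fibromodulin gene fmoda had 63, 153 and 48 normalized counts in hand2 FLD-/- and 1022, 1141 and 1028 in hand2 FLD+/?, and 361, 560 and 626 in hand2 OE and 107, 10 and 42 in WT, where its call was lost without library 2 or 3 of hand2 OE (limma adjusted p up to 0.0718). The lumican gene lum had 24, 28 and 10 normalized counts in hand2 FLD-/- and 399, 416 and 402 in hand2 FLD+/? and was not called in hand2 OE (limma adjusted p = 0.115). In both experiments the groups of dcn and fmoda lay apart, below the controls in hand2 FLD-/- and above them in hand2 OE. Without the variance trend, the hand2 OE calls of plod2, p4ha1b, pcolcea, loxl2b, fmoda, mmp2, mmp17a, ctsk and creb3l1 were lost. Their limma adjusted p lay between 0.0520 for pcolcea and 0.172 for mmp2. So were the mutant calls of loxl1 (limma adjusted p = 0.0507), loxl2a (0.0535), pcolce2a (0.0541), timp2b (0.0574), itga11b (0.0730) and itga11a (0.0736).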

How the data were processed

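Messenger RNA of sorted cardiomyocytes was prepared by the authors from about 1 ng of RNA per library with the SMART-Seq HT kit. Trimming used Trimmomatic 0.39, alignment to danRer11 used STAR 2.7.10a with Ensembl release 104, and exonic reads were assigned to genes by featureCounts 2.0.2, which dropped reads shared by genes or by places in the genome. Their tests used DESeq2 1.30.1. The use of strand is not given in the sources used here. The deposited values are scores, meaning normalized read counts that the authors scaled by a single factor for each library, separately in both experiments, and then rounded. Rounding merged neighboring read numbers, so that whole reads were not recovered and counting intervals are not given.

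Values were analyzed in R 4.3.3 with limma 3.58.1 (lmFit, eBayes with a variance trend) on log2(value + 1), which understates the change of low genes, for genes with a mean of at least 5, with Benjamini-Hochberg adjustment over all genes. Thresholds were an adjusted p of 0.05 and a fold of 1.5 (0.585 on the log2 scale). Each experiment was fitted alone. A floor of 3 normalized counts served for bounds. The steps were tested on simulated data, where 199 of 200 changed genes were recovered among 17889 genes with 6 unchanged genes called for the mutant experiment, and 198 of 200 among 16536 genes with 6 unchanged genes called for hand2 OE. The changed genes were drawn from those with a mean of at least 50 and changed by a fold of at least 2. Every gene had the same small spread beyond counting noise. Recovery of genes near the floor, or uneven between libraries, was therefore not tested.

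Named with values were all called collagen genes, the 3 with the highest mean of each class, their partner chains, and list genes called in both experiments or among the 2 largest changes of a list with a mean of at least 50, of which some are given by count alone. The genes uneven between libraries, those with a low adjusted p and a small fold, the pairs of duplicates, creb3l1 and list genes named only for a lost call were named after their values were seen. The members and all lists were chosen with earlier results of these data known. Alternatives were 2 other pseudocounts, 2 other filters, 2 other scalings, limma without the trend, 2 other fold thresholds, a replicate block and each library left out in turn.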

Additional observations from a re-analysis of the deposited data

How the results depend on the processing

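Of 178 alternative values of the 11 summary results, 154 stayed within 1.5 times the count or, for the 2 medians of log2 fold changes, moved by less than the spread between libraries. The mutant median of 0.000237 lies at 0 and took either sign, between -0.25 and 0.17, and the hand2 OE median of 0.47 lay between 0.12 and 0.74 with each library left out. The count of 14 collagen genes called down in hand2 FLD-/- stayed at 13 or 14 under every alternative. The 2 called up were 4 with no fold threshold, 0 at a fold of 2, and 1 to 5 with each library left out. The 24 pathway genes called down in hand2 FLD-/- were 39 with no fold threshold. In hand2 OE the 3 collagen genes called up were 1 without the variance trend and 1 to 3 with each library left out, and the 0 called down were 3 with no fold threshold. The 12 pathway genes called up in hand2 OE were 4 without the trend, 7 at a fold of 2 and 6 to 11 with each library left out, and the 2 called down were 1 without the trend and 1 to 2 with each library left out. The 3 collagen genes called in both experiments were 1 without the trend and 1 to 3 with each library left out. The cause was not tested, except that a looser or stricter fold threshold raises or lowers a count by construction. Single genes gave 73 results, where a gene followed in both experiments counts once in each. Of their alternative values, 1079 stayed on their side of the threshold, 85 lost the call, 1 gained it and 0 reversed a called change. A change of sign in a gene that was not called was not counted as a reversal. In hand2 OE, for example, the log2 fold change of col15a1b lay between -0.050 and 0.073.

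Replicate numbers were not used to pair the samples in the main fit, and the values do not settle whether they pair them. Same-numbered libraries correlated in their deviations from the group means at 0.0233, 0.034 and 0.0155 in the mutant experiment and at -0.0205, -0.0976 and -0.0377 in the hand2 OE experiment; each library correlated best with its own number in the mutant experiment and not in the other. With the replicate number as a block, 4 collagen genes were called up and 14 down in hand2 FLD-/-, and in hand2 OE 3 collagen genes were called up, and 1 pathway gene was called down and 8 up. Depth limits the genes with few counts, such as col6a2 in WT and the type IX chains, whose fold changes depend on the pseudocount.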
